A study of Arabidopsis thaliana with 6 samples.

Results

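Nuclear genes for cytochrome c oxidase were followed in whole Arabidopsis thaliana seedlings of cfm6-1 and of the Col-0 wild type (WT). The 9 loci were taken by a fixed list of locus IDs out of the 33602 in the deposited table: COX5b-1 (AT3G15640), COX5b-2 (AT1G80230), COX6B (AT1G22450), a second COX6b locus (AT5G57815), COX6a (AT4G37830), 3 COX5c loci (AT2G47380, AT3G62400 and AT5G61310) and COX17 (AT3G15352). All 9 are present and all 9 passed the filter on low values, which asked for at least 1 RPKM (reads normalised to gene length in kb and to library size in M, that is 1e6, reads) in at least 3 libraries. COX6B and COX17 carry these symbols in RefSeq, whose product names call AT5G57815 a subunit VIb family protein, AT2G47380 and AT5G61310 subunit Vc family proteins, both COX5b loci rubredoxin-like and COX6a a cytochrome c oxidase-like protein. COX5b, COX6a and COX5c are therefore working names here. The cfm6-1 group was labelled CFM6-/- in the Col-0 background and is a single allele, so an effect of the line and of the gene cannot be told apart here. Both groups were 14 days old, grew on half-strength MS medium with 1% sucrose at 22 °C under 16 h of light and 8 h of dark, and gave 3 libraries each. CFM6 is a CRM domain protein, a class that binds RNA and acts in group II intron splicing, and the study's title links it to splicing of a nad5 intron in mitochondria. The comparison asks how transcript levels differ between cfm6-1 and WT seedlings.

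Cytochrome c oxidase, or complex IV, ends the respiratory chain of mitochondria: it takes electrons from cytochrome c, passes them through copper and heme centres to oxygen, and moves protons across the inner membrane. The catalytic core is encoded in the mitochondrial genome, whereas the small subunits around it and the factors that build it are nuclear genes whose products are imported. In plants the alternative oxidase offers electrons a route to oxygen that bypasses complex IV.

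Depth was placed at 47.3 to 52.7 M reads per library from the step that a single read makes in short genes, and single members held between 315 and 10851 rebuilt reads in a library. AT4G13070, the CRM domain locus taken as CFM6, was at 1.32, 1.23 and 1.32 RPKM in cfm6-1 replicates 1 to 3, against 3.85, 3.69 and 4.10 RPKM in WT. Most of the transcriptome differed between the groups: of the 20047 tested loci, 38.6% rose in cfm6-1 and 30.2% fell (limma, adjusted p threshold 0.05), 68.8% in all. The labels call the replicates biological without saying whether they came from separate plates or sowings. In whole seedlings a change in the number of cells of a type and a change in RNA per cell cannot be told apart.

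Of the 9 nuclear cytochrome c oxidase genes, 7 were higher in cfm6-1 and none was lower by the same limma test, against 38.6% and 30.2% of all tested loci. These genes and the lists below were chosen with earlier results of these data known, so such counts are not independent of the data. The median change was 0.44 on the log2(RPKM + 1) scale, against 0.05 over all tested loci, and the members ranged from 0.03 to 1.14. The same 7 genes had all 3 cfm6-1 libraries above all 3 WT libraries, which was the case for 41.5% of tested loci, and none had them all below, as 32.8% of tested loci did. COX17 and the least abundant COX5c locus had the largest changes, whereas COX5b-1 and the COX6b locus AT5G57815 did not pass the test. Summed over the 9 genes, the level was 870 ± 42.5 RPKM in cfm6-1 and 660 ± 17.3 RPKM in WT (SD, n = 3 each), a ratio of 1.32. COX6a alone made up 44.1% of that summed difference.

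**Figure D1:**
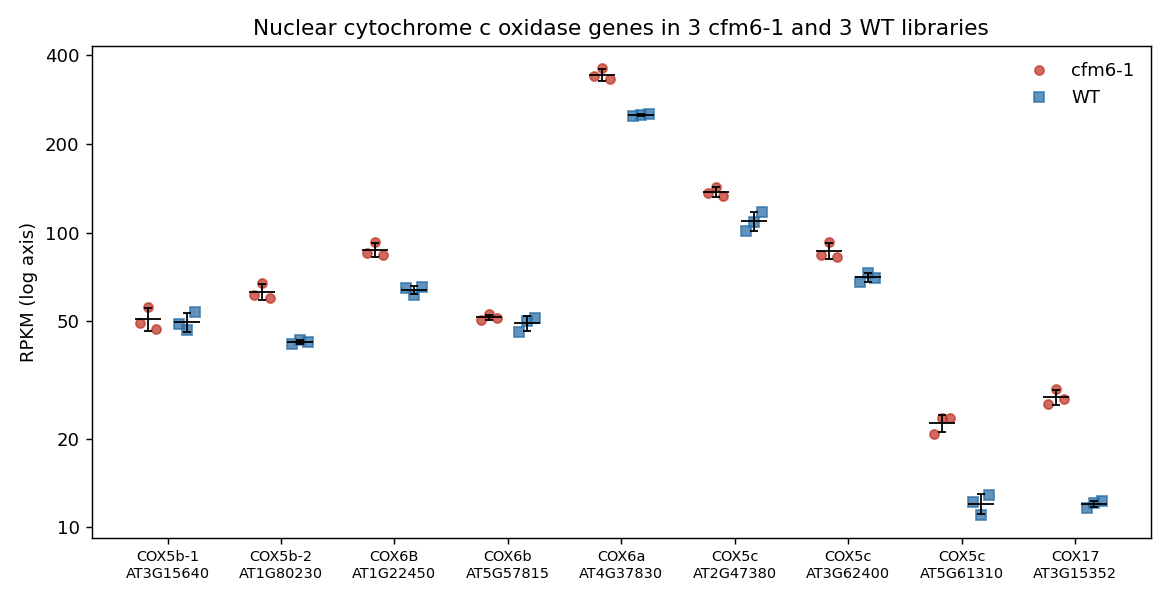
RPKM (vertical log axis) of the 9 genes in each of 3 cfm6-1 libraries (circles) and 3 WT libraries (squares), with the mean and SD of each group in black. The groups are apart for 7 genes and overlap for COX5b-1 and AT5G57815, and COX6a stands highest in both groups.

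The sequence just upstream of 5 of the 9 genes holds site II elements, short motifs known from promoters of nuclear genes for respiratory proteins in plants. Site II was searched as TGGGCC or TGGGCT on both strands, from 250 bases before to 50 after the RefSeq gene start. It was found at AT5G57815, COX6a, COX17 and the COX5c loci AT2G47380 and AT3G62400, which is 55.6% of the members, against 21.7% of the 27443 promoters of protein-coding genes. In the related lists described below the share was 64.7% for complex III and cytochrome c and 64.3% for ATP synthase. It was 53.8% for complex IV assembly genes and 30% for other COX-family loci, so the motif is not particular to the members. The 100 bases before the gene start are shown for the 5 members with a match, because every match in the window lay within these bases. They are from RefSeq TAIR10.1, read 5′ to 3′ in the direction of the gene, with the matches in capitals:
COX17 (chr3:5179258-5179357, plus strand): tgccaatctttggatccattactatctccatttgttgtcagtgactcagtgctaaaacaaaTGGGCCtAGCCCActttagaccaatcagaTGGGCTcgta
COX6a (chr4:17788835-17788934, minus strand): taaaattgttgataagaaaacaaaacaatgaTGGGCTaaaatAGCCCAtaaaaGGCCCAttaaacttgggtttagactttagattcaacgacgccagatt
COX5c, AT2G47380 (chr2:19440823-19440922, plus strand): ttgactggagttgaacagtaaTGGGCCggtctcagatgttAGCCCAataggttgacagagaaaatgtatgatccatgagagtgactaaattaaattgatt
COX5c, AT3G62400 (chr3:23089496-23089595, plus strand): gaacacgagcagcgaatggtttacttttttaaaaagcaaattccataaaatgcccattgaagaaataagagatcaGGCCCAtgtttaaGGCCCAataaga
COX6b, AT5G57815 (chr5:23426547-23426646, plus strand): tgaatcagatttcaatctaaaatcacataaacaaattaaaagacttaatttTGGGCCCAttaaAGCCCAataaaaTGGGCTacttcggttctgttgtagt

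COX17 and COX6a each held 3 matches, on both strands. Both COX5c loci held 2, on both strands at AT2G47380 and on the minus strand relative to the gene at AT3G62400. AT5G57815 held the most, 4, of which 1 pair overlaps because TGGGCC is read on both strands of the same run. This locus did not pass the test between genotypes, so among these genes the motif is present both where the level changed and where no change was called. No match was found at COX5b-1, COX5b-2, COX6B and the COX5c locus AT5G61310, and 3 of these 4 rose in cfm6-1. Whether the motif bears on the change was not tested. With windows at every annotated transcript start, an addition made after the first counts were known, 5 of 9 members again held the motif, against 23.3% of genes. The core of the telo-box (AACCCTA), the G-box (CACGTG) and the mitochondrial dysfunction motif, which NAC factors bind, were each found at 0 of the 9, against 8.83%, 7.68% and 1.42% of all promoters. With shares this low, 0 of 9 is near the background and is not read as a result. The G-box was found at 4 of the 10 other COX-family loci described below. Positions and sequence are those of RefSeq on TAIR10.1, an update of the TAIR10 build that the submitters name, and RefSeq models are longer than those of the files, so a gene start may differ from the one in use.

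COX5b is the subunit that, in mammals, holds a zinc ion on the matrix side of the enzyme, and of its pair of genes COX5b-2 passed the test and COX5b-1 did not. COX5b-1 was at 49.2, 55.9 and 47.2 RPKM in cfm6-1 replicates 1 to 3, against 48.8, 46.6 and 53.9 RPKM in WT. Its groups overlapped over nearly their whole range. The log2 change was 0.03 with a 95% interval of -0.16 to 0.22 (limma adjusted p = 0.772), which leaves room for a small change in either direction, and it turns to -0.028 with median-of-ratios scaling and to -0.068 with quantile normalization.

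COX5b-2 was at 61.6, 67.5 and 59.8 RPKM in cfm6-1, against 41.9, 43.1 and 42.5 RPKM in WT. Every cfm6-1 library lay above every WT library, and the WT libraries were close together. The gene rose 1.48-fold, with a log2 change of 0.55 (SE 0.05, limma adjusted p = 9.82e-05). The proteins of this pair are 73.2% identical over 168 aligned residues, and their transcripts share no run of 50 bases.

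The share of COX5b-1 in the summed RPKM of the pair was 44.4%, 45.3% and 44.1% in cfm6-1, against 53.8%, 51.9% and 56.0% in WT. The more abundant gene of the pair thus differed between the groups: COX5b-2 in all 3 cfm6-1 libraries and COX5b-1 in all 3 WT libraries. The difference was -9.26 percentage points (two-sided exact permutation p = 0.1, adjusted over the 5 shares tested 0.167), and 0.1 is the smallest p that 3 against 3 can give. The sum of the pair was 114 ± 8.61 RPKM in cfm6-1 and 92.3 ± 3.63 RPKM in WT (n = 3 each), a ratio of 1.23.

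COX6b is a small subunit that, in mammals, faces the intermembrane space. COX6B was at 85.0, 92.5 and 83.7 RPKM in cfm6-1, against 64.8, 61.6 and 65.2 RPKM in WT. The groups did not overlap, and the gene rose 1.36-fold (log2 change 0.44, SE 0.05, limma adjusted p = 0.000271). A gene on the opposite strand, AT1G22460, overlaps it by 59 bases and was below 1 RPKM in every library.

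AT5G57815 was at 50.5, 52.8 and 51.4 RPKM in cfm6-1, against 46.1, 50.2 and 51.5 RPKM in WT. These ranges overlapped, with WT replicate 1 lowest. The log2 change was 0.07, with a 95% interval of -0.06 to 0.19 (limma adjusted p = 0.296), and it turns to -0.029 with quantile normalization. A further COX6b locus outside the 9, AT4G28060, was at 88.7 ± 5.82 RPKM in cfm6-1 and 87.3 ± 3.62 RPKM in WT (n = 3 each, log2 change 0.02, limma adjusted p = 0.763), a value that turns to -0.034 with median-of-ratios scaling and to -0.114 with quantile normalization. Its protein and that of AT5G57815 both have 78 residues and are 94.9% identical, while the COX6B protein is 191 residues long and matches them over 78.

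COX6B thus rose and the 2 short COX6b genes were not called. The share of COX6B in the sum with AT5G57815 was 62.7%, 63.7% and 62.0% in cfm6-1, against 58.4%, 55.1% and 55.9% in WT, a difference of 6.33 points with no overlap (two-sided exact permutation p = 0.1, adjusted 0.167). With AT4G28060 added to the sum, after its values were seen, the 3 COX6b genes together were at 227 ± 11.1 RPKM in cfm6-1 and 200 ± 6.66 RPKM in WT (n = 3 each), a ratio of 1.13.

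**Figure D2:**
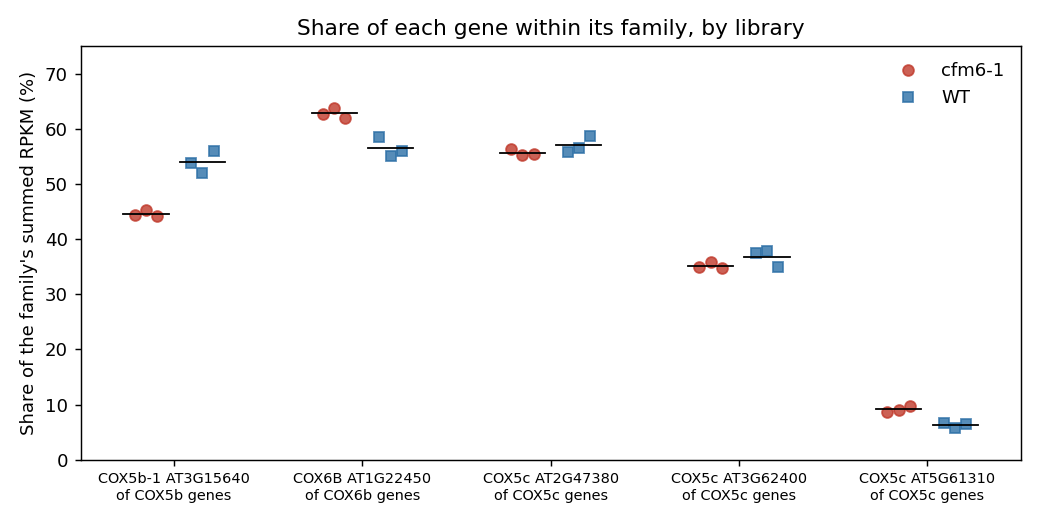
Share of single genes in the summed RPKM of their family (vertical axis, %), in 3 cfm6-1 libraries (circles) and 3 WT libraries (squares), with the mean as a black line. COX5b-1 averages 44.6% in cfm6-1 and 53.9% in WT, and the groups do not overlap for COX5b-1, COX6B and AT5G61310.

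COX6a, known from mammals and yeast as a small subunit in the inner membrane, was the most abundant of the 9 in both groups. Its level was 339, 361 and 331 RPKM in cfm6-1, against 249, 251 and 253 RPKM in WT. The WT libraries were within a few RPKM of each other, and all cfm6-1 libraries lay far above them. The gene rose 1.37-fold (log2 change 0.45, SE 0.05, limma adjusted p = 0.000223). It held 39.5% of the summed level of the 9 genes in cfm6-1 and 38.0% in WT.

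COX5c is a small membrane subunit of plants with 3 expressed genes here, whose proteins, compared as the isoforms of 64 residues, are 89.1% to 93.8% identical. AT2G47380 was at 136, 143 and 133 RPKM in cfm6-1, against 101, 109 and 118 RPKM in WT. The groups did not overlap, though WT spread more than cfm6-1 did. It rose 1.26-fold (log2 change 0.33, SE 0.06, limma adjusted p = 0.00312). Its deposited multiply mapped fraction was 0.125, and AT2G47390, at a mean of 52.7 RPKM in cfm6-1 and 51.6 RPKM in WT, overlaps it by 62 bases on the opposite strand, so its level is uncertain. An antisense locus that overlaps it by 769 bases, AT2G09885, was not analysed here.

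AT3G62400 was at 84.2, 92.8 and 82.9 RPKM in cfm6-1, against 68.0, 73.1 and 70.0 RPKM in WT. The gap between the groups was small but held for every pair of libraries. The rise was 1.23-fold (log2 change 0.29, SE 0.06, limma adjusted p = 0.00287). After quantile normalization its log2 change was 0.15 and its limma adjusted p 0.0467.

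AT5G61310, the third COX5c gene, was at 20.8, 23.5 and 23.4 RPKM in cfm6-1, against 12.2, 11.0 and 12.8 RPKM in WT. No library of one group came near the other. It rose 1.88-fold (log2 change 0.86, SE 0.07, limma adjusted p = 5.53e-05), with a 95% interval of 0.68 to 1.03 that lies above those of AT2G47380 (0.17 to 0.48) and AT3G62400 (0.16 to 0.43).

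Within the COX5c family AT5G61310 remained the minor gene. Its share was 8.63%, 9.06% and 9.81% in cfm6-1, against 6.73%, 5.68% and 6.40% in WT, a difference of 2.90 points with no overlap (two-sided exact permutation p = 0.1, adjusted 0.167). AT2G47380 held 55.7 ± 0.632% in cfm6-1 and 57.0 ± 1.52% in WT, and AT3G62400 held 35.1 ± 0.568% in cfm6-1 and 36.8 ± 1.61% in WT (n = 3 each). For these 2 genes the shares overlapped between the groups (exact permutation p = 0.2 and 0.3, adjusted 0.25 and 0.3). The family as a whole was at 246 ± 11.3 RPKM in cfm6-1 and 192 ± 9.59 RPKM in WT, a ratio of 1.29.

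COX17 is known from yeast as a soluble copper chaperone of the intermembrane space that hands copper to the factors loading the core subunits, and is no subunit itself. It was at 26.3, 29.4 and 27.2 RPKM in cfm6-1, against 11.7, 12.1 and 12.3 RPKM in WT. The lowest cfm6-1 library had more than any WT library by over 10 RPKM. With a 2.30-fold rise it changed most of the 9 (log2 change 1.14, SE 0.05, limma adjusted p = 6.31e-06), and its 95% interval of 1.01 to 1.27 lies above those of the other members except AT5G61310.

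The 3′ end of COX17 overlaps that of MT3 (AT3G15353), a metallothionein gene on the opposite strand, by 24 bases. MT3 was far more abundant and lay lower in cfm6-1, at 679, 560 and 601 RPKM against 887, 865 and 852 RPKM in WT. Any part of MT3 reads in the level of COX17 was not tested. Whether counting used strand is not given in the sources used here, and the antisense locus AT3G03095, which overlaps COX17 by 754 bases, was not analysed here. The paralog COX17-2 (AT1G53030), at 33.3 ± 1.495 RPKM in cfm6-1 and 26.6 ± 1.38 RPKM in WT (n = 3 each), rose with a log2 change of 0.32 (SE 0.06, limma adjusted p = 0.00178). COX17-2 was the more abundant of the pair in every library of both groups, and the pair together was at 61.0 ± 1.48 RPKM in cfm6-1 and 38.6 ± 1.68 RPKM in WT.

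**Figure D3:**
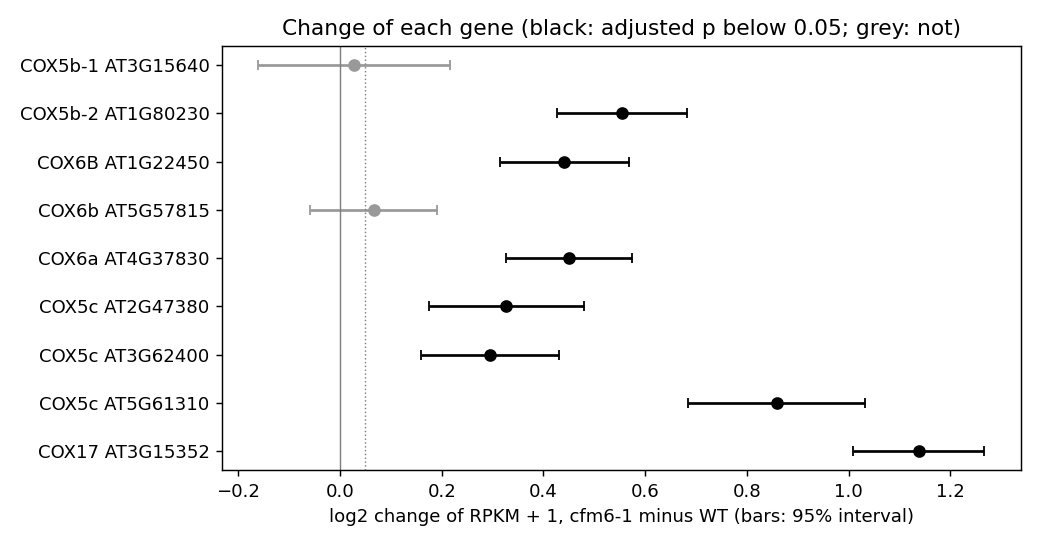
Fitted log2 change of RPKM + 1 (horizontal axis, cfm6-1 minus WT) of each of the 9 genes with its 95% interval; black marks a limma adjusted p below 0.05, and the dotted line is the median of all tested loci (0.05). The intervals of COX5b-1 and AT5G57815 include 0, and COX17 lies farthest to the right at 1.14.

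RPKM is a level per length, so the members can be ordered, but the order rests on the gene lengths that the authors used. The longest RefSeq transcripts are longer, with 740 bases against 422 for AT2G47380, 1658 against 587 for AT5G61310 and 1050 against 544 for COX17. For COX6a they are close, with 597 against 574. Places in the order and family shares may differ with RefSeq lengths, which was not worked out. In cfm6-1 the order was COX6a (344 RPKM), AT2G47380 (137), COX6B (87.1), AT3G62400 (86.6), COX5b-2 (63.0), AT5G57815 (51.6), COX5b-1 (50.8), COX17 (27.6) and AT5G61310 (22.6), as means of 3 libraries. Neighbours whose library ranges overlapped, and which are therefore not separated, were COX6B with AT3G62400 and AT5G57815 with COX5b-1. For the other neighbours the lack of overlap covers the spread among libraries only, not gene length or multiply mapped reads. In WT the order was COX6a (251 RPKM), AT2G47380 (109), AT3G62400 (70.4), COX6B (63.8), COX5b-1 (49.8), AT5G57815 (49.3), COX5b-2 (42.5), and last AT5G61310 and COX17, whose means did not differ at this rounding. Here COX5b-1 overlapped AT5G57815, and AT5G61310 overlapped COX17. COX5b-2 stood above both AT5G57815 and COX5b-1 in cfm6-1 and below both in WT, and the least abundant genes in WT were those with the largest fold changes.

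Libraries of one group also shared a pattern across the members. All 9 genes were highest in cfm6-1 replicate 2 among the cfm6-1 libraries, where 40.7% of all tested loci were highest. The summed level of the 9 was 852, 918 and 839 RPKM in cfm6-1 replicates 1 to 3, against 644, 658 and 678 RPKM in WT. Without cfm6-1 replicate 2 the same number of members, 7, was called. Within a group the SD was 0.666% to 8.99% of the mean.

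The factors that build complex IV moved in the same direction as the subunits, and some moved more. Of 13 assembly genes, COX17-2 included, 12 rose in cfm6-1 and none fell, against 38.6% and 30.2% of all tested loci, and the median log2 change was 0.51. COX10 and COX11, whose changes were 0.15 and 0.13, miss the threshold under both other scalings. COX11 also misses it whichever library is left out, with the replicate number as a block and with limma-voom on rebuilt reads, and COX10 misses it without WT replicate 1, WT replicate 3 or cfm6-1 replicate 2. HCC2 (AT4G39740), a relative of the copper chaperone SCO1 of yeast, was at 10.6, 13.3 and 12.5 RPKM in cfm6-1, against 3.49, 3.28 and 3.43 RPKM in WT. It rose 3.57-fold (log2 change 1.57, SE 0.08, limma adjusted p = 8.14e-06). HCC1 (AT3G08950), the other SCO1 homologue, rose 2.22-fold to 15.6 ± 1.03 RPKM in cfm6-1, against 7.03 ± 0.105 RPKM in WT (n = 3 each, limma adjusted p = 9.70e-06).

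COX19-2 (AT1G69750), a relative of a small copper-linked protein of the intermembrane space in yeast, rose 1.81-fold (limma adjusted p = 3.60e-05), with a multiply mapped fraction of 0.179. COX15 (AT5G56090), which in yeast acts in making heme A for the enzyme, was at 14.2 ± 1.57 RPKM in cfm6-1 and 6.52 ± 0.372 RPKM in WT (limma adjusted p = 4.62e-05). The single assembly gene that did not pass was the SURF1 relative AT1G48510, at 1.62 ± 0.0764 RPKM in cfm6-1 and 1.54 ± 0.246 RPKM in WT (adjusted p = 0.660).

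A list of 10 further loci counted with complex IV by family or annotation also held rises. Of its 7 tested loci 5 rose and none fell, against 38.6% and 30.2% of all tested loci, and the median log2 change was 0.26. After quantile normalization 3 rose and 1, the COX5b relative AT1G52710, fell, as it did with median-of-ratios scaling. Without WT replicate 2, and likewise without WT replicate 3, 3 rose, a share of the 7 near that of all loci. RefSeq gives most of these loci no complex IV name. AT1G72020, named there as a TonB-dependent heme receptor, was at 213 ± 12.8 RPKM in cfm6-1 and 145 ± 1.38 RPKM in WT (limma adjusted p = 0.000114). ATOZI1 (AT4G00860), an ozone-induced gene, rose 1.22-fold (limma adjusted p = 0.00359), and AT5G27760, a hypoxia-responsive family gene, 1.37-fold (adjusted p = 0.0122). The COX6b relative AT1G32710 and AT3G43410 were listed at 0 in all 6 libraries, and the COX5c relative AT5G40382 stayed below 1 RPKM.

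The mitochondrial genome encodes the core of complex IV, and its loci were near the limit of what these libraries resolve. ATMG00730, which a RefSeq note names as subunit 3, was at 0.69, 0.66 and 0.63 RPKM in cfm6-1, against 0.41, 0.59 and 0.22 RPKM in WT, below the filter and with a multiply mapped fraction of 0.627. The other 2 mitochondrial loci listed here for the core have no name in the reference tables: ATMG01360 was at 1.75, 1.42 and 2.03 RPKM in cfm6-1, against 0.86, 0.98 and 0.76 RPKM in WT. It passed the filter only through its cfm6-1 libraries, so its test (log2 change 0.55, limma adjusted p = 0.00218) is not read as a result. ATMG00160 was at 1.98 ± 0.0929 RPKM in cfm6-1 and 1.65 ± 0.202 RPKM in WT (adjusted p = 0.0906). ATMG00160 had a multiply mapped fraction of 0.359, and these 2 loci held 56 to 170 rebuilt reads per library.

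Transcripts of the nuclear genes listed for complex III with cytochrome c and for ATP synthase were also higher in cfm6-1. In the complex III and cytochrome c list 17 of 17 genes rose, with a median log2 change of 0.54, and in the nuclear list for mitochondrial ATP synthase 14 of 14 rose, with a median of 0.50, against 38.6% of all tested loci and a median of 0.05. After quantile normalization these counts were 14 and 13. Cytochrome c, the electron donor of complex IV, was at 258 ± 11.6 RPKM in cfm6-1 and 151 ± 9.82 RPKM in WT for CYTC-1 (AT1G22840), a 1.71-fold rise (limma adjusted p = 4.93e-05). CYTC-2 (AT4G10040) was at 53.5 ± 2.29 RPKM in cfm6-1 and 21.8 ± 2.16 RPKM in WT, a 2.45-fold rise (adjusted p = 1.20e-05). In complex III the RefSeq cytochrome c1 gene AT3G27240 and the iron-sulfur subunit gene AT5G13430 rose 1.52-fold and 1.58-fold (adjusted p = 4.07e-05 and 3.66e-05), the second with a multiply mapped fraction of 0.122. In ATP synthase the changes of AT1G51650, for the epsilon chain, AT4G26210, for a subunit G protein, and AT5G08690, of the alpha/beta family, were 0.79, 0.95 and 0.75 (adjusted p = 1.60e-05, 1.73e-05 and 1.84e-05). Whether complex IV genes changed less than these lists was not tested.

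**Figure D4:**
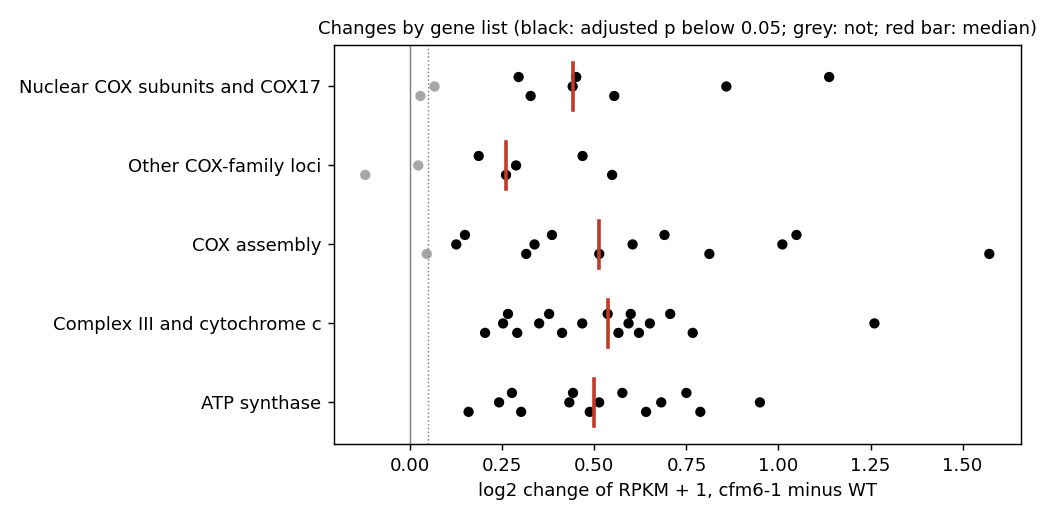
Fitted log2 change of RPKM + 1 (horizontal axis, cfm6-1 minus WT) of each tested gene in 5 lists; black points passed a limma adjusted p below 0.05, grey points did not, red bars are medians and the dotted line is the median of all tested loci (0.05). The medians run from 0.26 in other COX-family loci to 0.54 in complex III and cytochrome c, and all genes of complex III and of ATP synthase are black.

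Markers of tissues moved beside these genes, and their counts stand against the 30.2% of all tested loci that were lower and the 38.6% that were higher. The green leaf list was lower in cfm6-1 for 18 of 18 genes, with a summed level of 23426 to 26480 RPKM in cfm6-1 and 40828 to 49278 RPKM in WT. With quantile normalization, and likewise with no filter, 16 of them were called lower. The falls of smallest adjusted p were those of the glycine decarboxylase gene GLDP1, the photosystem I gene PSAD-2 and the antenna gene LHCB2.1, whose multiply mapped fraction was 0.223. In the root list 8 of 14 tested genes were lower and 2 higher, with CASP1, PER64 and COBL9 of smallest adjusted p among the falls and PYK10 and MYB36 higher. Its summed level, most of it PYK10, was 2371 to 2810 RPKM in cfm6-1 and 1815 to 2049 RPKM in WT. Genes of dividing cells were higher for 7 of 8, CYCB1.1, CYCB1.2 and MCM2 first, with a summed level of 91.5 to 107 RPKM in cfm6-1 and 70.5 to 79.2 RPKM in WT. This count was 5 with median-of-ratios scaling, 5 with quantile normalization and 6 with no filter. No marker of these lists was at 0 in all libraries, and their part in the rise of the cytochrome c oxidase genes was not tested.

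The loci whose pattern over the 6 libraries was most like the mean of the 9 members, by Pearson correlation of log2(RPKM + 1), were AT1G15920, GPP1 (AT4G25840), AT1G50910, EIF4B1 (AT3G26400) and CYP81D5 (AT4G37320), with r between 0.997 and 0.999. None of them belongs to the lists above. GPP1, for example, was at 18.1 ± 0.740 RPKM in cfm6-1 and 15.3 ± 0.542 RPKM in WT. With 6 libraries in 2 groups such values are common: 1975 loci, 9.86% of those compared, had r above 0.95, and the members themselves ranged from 0.447 for COX5b-1 and 0.737 for AT5G57815 to 0.985 for AT2G47380. Each member is part of the mean it was compared with, which raises its r, so these values are not comparable with those of the other loci.

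The authors' deposited table gives an adjusted p below 0.05 to 5 of the 9 genes: COX5b-2, COX6B, COX6a, AT5G61310 and COX17, with log2 fold changes of 0.52, 0.40, 0.41, 0.86 and 1.15. Of all loci 25.5% are below it in the authors' deposited table, and 40.0% of the loci tested here. AT2G47380 and AT3G62400 are at adjusted p of 0.0702 and 0.0580 in the authors' deposited table. The sign there is that of coded groups, and over loci above 5 RPKM it follows the ratio of cfm6-1 to WT with a slope of 1.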

How the data were processed

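The authors deposited RPKM values per locus, rounded to 2 decimals, whose unit was read from the values; 100 bp single-end reads and the build TAIR10 are given per the labels and the submitters' processing notes, while the sources used here give no aligner or counter. A deposited fraction gives the multiply mapped share of each locus. The authors' deposited table of p-values and log2 fold changes was used for comparison and for gene length; its 6 coded library columns and the mapping totals carry codes not tied to samples and were not used. Depth was the value between 20 and 80 M reads that made RPKM times length whole (within 0.1 read) in genes under 0.3 kb, which held for 100% of the 376 to 433 values used per library; counting error alone is covered by such depths.

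The test was limma 3.58.1 (R 4.3.3) applied to log2(RPKM + 1), with the trended prior, genotype alone in the model and Benjamini-Hochberg adjustment over 20047 loci. It was tested on simulated data, where the smallest changes were missed and large ones mostly found. Few loci were changed there, so the adjusted threshold was stricter than in the data, where 68.8% of loci passed. The simulation therefore does not give the power for changes of the members' size. The pseudocount of 1 understates changes of low genes, so folds are ratios of mean RPKM. Family shares had a two-sided exact permutation test. Promoters came from RefSeq TAIR10.1 (Biopython 1.88); 19868 tested loci and all 9 members matched by locus tag. Loci with a multiply mapped share above 0.1 are taken as uncertain, and the fraction is given beside most of those that are named. The list counts include such loci, with fractions up to 0.99 in the root list. Named genes were all members, both cytochrome c genes, the mitochondrial loci, up to 3 rises and falls of smallest adjusted p per list, of which the text names a part, and the 5 most alike loci; AT1G48510, AT1G52710, AT4G28060, COX10, COX11, COX15, COX17-2, the overlapping loci and the untested loci of the other COX-family list were added after their values were seen. The members and lists were chosen with earlier results of these data known. Alternatives were pseudocounts, no filter, scalings, a replicate block, limma-voom on rebuilt reads, loss of multiply mapped loci and each library left out.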

Additional observations from a re-analysis of the deposited data

How the results depend on the processing

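In each of the 14 alternatives the 7 members called higher stayed called, apart from AT2G47380 where multiply mapped loci were left out, so that the count was 7 in 13 of them and 6 in that one; no member was called lower. COX5b-1 changed sign without passing the threshold, to -0.0281 with median-of-ratios scaling, -0.0675 with quantile normalization, -0.0178 without WT replicate 2 and -0.0424 without cfm6-1 replicate 2; with 1 library left out it lay between -0.0424 and 0.0862. AT5G57815 turned to -0.0288 with quantile normalization. Outside the members, AT4G28060 turned to -0.0343, -0.114 and -0.0214 with median-of-ratios scaling, quantile normalization and without cfm6-1 replicate 2, and AT1G48510 to -0.00985 without WT replicate 2; with 1 library left out they lay between -0.0214 and 0.0722 and between -0.00985 and 0.122. In the list of other COX-family loci 1 gene was called lower with either scaling, and 3 higher with quantile normalization; with 1 library left out its count of rises lay between 3 and 5. The cause of these changes was not tested. No pairing by replicate number was seen: deviations of same-numbered libraries correlated at 0.03, -0.14 and -0.002, and those of differently numbered ones between -0.09 and 0.11. Such values cannot exclude a shared plate or sowing. With the replicate block 7423 loci were higher and 5832 lower, against 7736 and 6063 without it, and 7 members were called. The differences in family share kept their direction with shares of rebuilt reads in place of RPKM and with each library left out. Members held at least 315 rebuilt reads per library, but the mitochondrial locus ATMG00730 as few as 16.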
